A study of Mus musculus with 12 samples.

Results

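The actin cytoskeleton and branching genes described here are 45 mouse genes: the cytoplasmic actins, the Arp2/3 complex, the proteins that bind actin monomers, the severing, disassembly and capping factors, the WASP and WAVE nucleation promoters, the formins and Ena/VASP proteins, and a small group of bundling, membrane-linking and intermediate filament genes. They were chosen by symbol among the 55487 genes of the count table, and all 45 were found by their Ensembl identifier in the annotation of the mouse genome GRCm38. RNA-seq of 12 libraries gave their levels in microglia from YARG mice at postnatal day 13, in which YFP is read out from the endogenous *Arg1* locus. Cells positive for CX3CR1, the fractalkine receptor carried by microglia, and negative for CD206, a marker of perivascular macrophages, were taken from tissue ventral to the corpus callosum and separated by YFP into ARG1+ and ARG1– microglia. There were 3 libraries each of ARG1– females (replicates 1, 2 and 13), ARG1+ females (7, 8 and 15), ARG1– males (5, 6 and 14) and ARG1+ males (11, 12 and 16). All groups carried the reporter, and the tissue of several mice was pooled before both populations were sorted from it, so that a library stands for a pool and not an animal.

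Microglia move and reshape their processes by building and dismantling actin filaments. Monomeric actin is held in reserve by thymosin and delivered by profilin, the Arp2/3 complex starts new filaments as branches on the side of existing ones when WASP or WAVE proteins switch it on, capping protein stops growth at the fast-growing end, and cofilin and its relatives sever old filaments so that monomers return to the pool. Formins and Ena/VASP proteins favour long unbranched filaments instead.

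Total counts were between 28356659 and 46569667 in ARG1+ libraries and between 30954399 and 60625170 in ARG1– libraries. Between replicates of a group, the chi-square of the counts was 40.7 to 125 times its degrees of freedom, so no library was a copy of another. Microglial markers (*P2ry12*, *Tmem119*, *Siglech*, *Gpr34*, *Cx3cr1*, *Csf1r*, *Fcrls* and *Olfml3*) were found in every library, at summed levels that overlapped between populations. Of these 8, 6 were lower in ARG1+ microglia, with log2 fold changes from -0.92 (*Gpr34*) to -0.41 (*Fcrls*), whereas *Csf1r* (0.05, adjusted p = 0.861) and *Cx3cr1* (0.08, adjusted p = 0.752) did not pass. Of the other cell types' markers, the monocyte gene *Plac8* was also lower (-2.38, adjusted p = 0.00466), and the endothelial gene *Vwf*, at 0 to 5.23 CPM in ARG1+ and 0 to 0.0341 CPM in ARG1– libraries, was called higher (adjusted p = 0.0327). Of the 6 markers of mural cells, whose contractile actin *Acta2* is no member here, the summed level was at most 4.99 CPM in any library, where CPM is a gene's count scaled to the TMM-normalised total of its library. The 5 astrocyte markers summed to 129 to 148 CPM in ARG1+ and 176 to 223 CPM in ARG1– libraries, most of it *Slc1a3*. The 5 erythroid markers summed to 0 to 3.39 and 3.69 to 17.7 CPM. Both sums were thus lower in every ARG1+ than in every ARG1– library, but not every marker was. By edgeR, only *Slc1a3* (-0.43, adjusted p = 0.00817) of the astrocyte and *Hbb-bt* (-5.40, adjusted p = 0.00866) of the erythroid markers passed. *Gfap* (1.70, adjusted p = 0.475) and *Alas2* (0.26, adjusted p = 0.936) had fitted values above 0. The part of these markers in the results below was not tested. The share of all counts on genes with under 1500 bases of exon was 6.05 to 8.57% in ARG1+ and 9.23 to 10.4% in ARG1– libraries, and mitochondrial genes took 0.147 to 0.396% and 0.247 to 0.636%.

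Of the members, 20 were lower in ARG1+ microglia and the other 25 did not pass the test. The filter on low counts removed none of the 45. The 20 fell in ARG1+ against ARG1– microglia at an adjusted p under 0.05 (edgeR's quasi-likelihood test with sex as a second term, Benjamini–Hochberg adjustment over 16908 genes), whereas 0 rose. Over all genes tested, 9.42% were lower and 6.44% higher. DESeq2 called 20 members lower and 1, *Vim*, higher, against 11.3 and 11.4% of all genes. The median log2 fold change (ARG1+ minus ARG1–) was -0.35 over the members and 0.06 over all genes tested. Of the members, 26 had an unadjusted p under 0.05 by edgeR, as had 4919 of all 16908 genes. A fold change below 0 was found in 33 members, compared with 46.4% of all genes. Because the members are abundant, protein-coding genes at a mean of at least 50 CPM are a closer background: 20.4% of these 3764 genes were lower and 10.4% higher, and of the 33 members at that level 18 were lower and 0 higher. In 13 members, all 6 ARG1+ libraries lay below all 6 ARG1– libraries, as in 6.56% of all genes, and in 0 members they lay above, against 3.48%. Together, the members took 2.05 to 2.44% of all counts in ARG1+ libraries and 2.78 to 3.27% in ARG1– libraries. These are levels in bulk RNA, in which fewer cells of a type cannot be told apart from less RNA per cell.

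**Figure D1:**
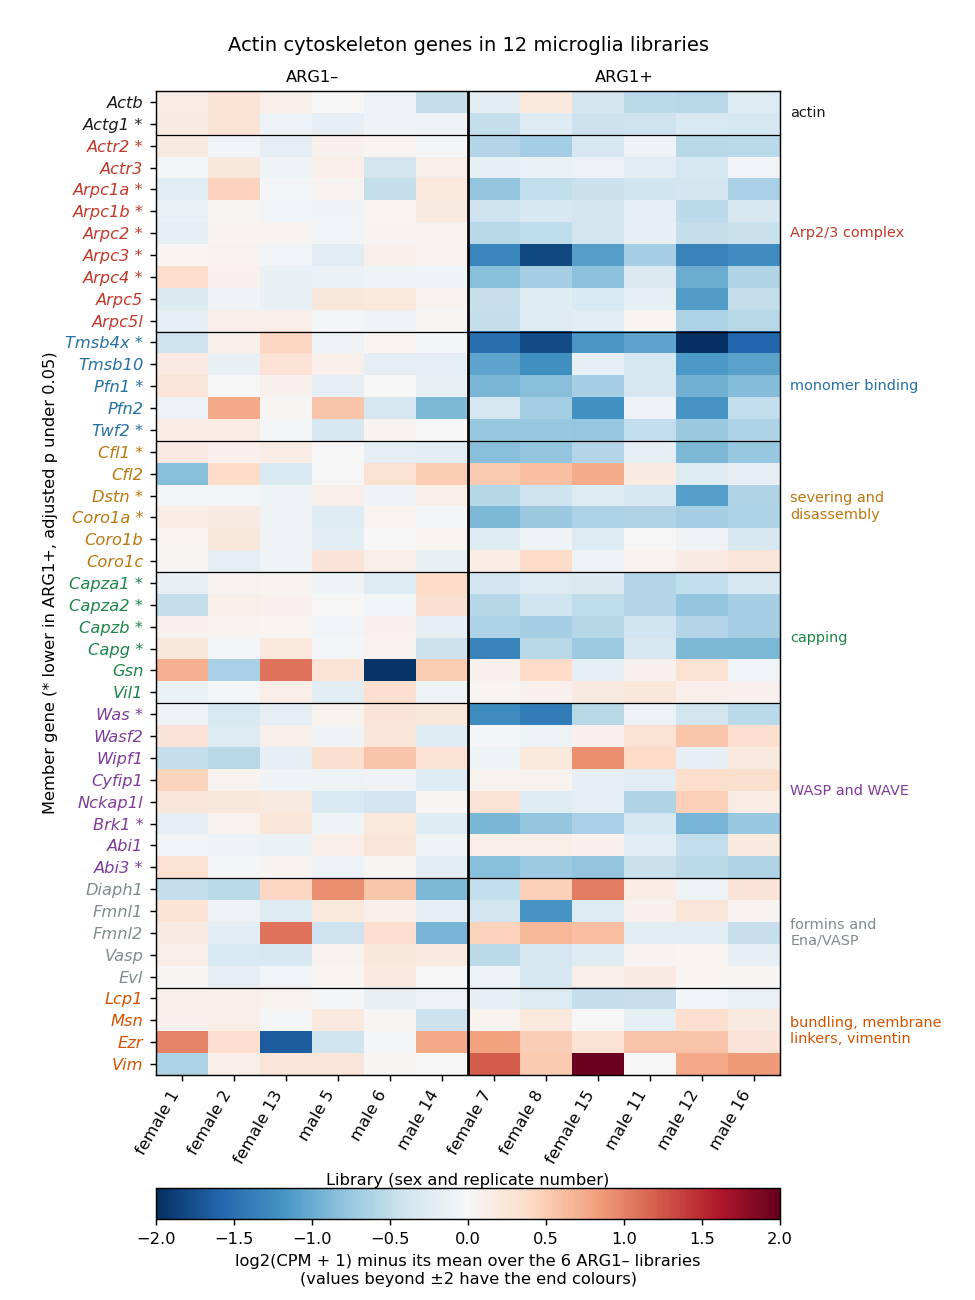
Level of the 45 members (rows, grouped by role) in each of the 12 libraries (columns, sex and replicate number), as log2(CPM + 1) minus its mean over the 6 ARG1– libraries. The ARG1+ columns are blue for the 20 genes marked with an asterisk, most deeply for *Tmsb4x* and *Arpc3*, while *Vim* is red in 5 of the 6 ARG1+ libraries and close to the ARG1– mean in male replicate 11.

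Of the 2 actins 1 was lower, of the 9 Arp2/3 subunits 6, of the 5 monomer-binding genes 3, of the 6 severing and disassembly genes 3, of the 6 capping genes 4 and of the 8 WASP and WAVE genes 3. None of the 5 formin and Ena/VASP genes and none of the 4 bundling, membrane-linking and intermediate filament genes passed the threshold, with 0 and 2 of them at an unadjusted p under 0.05. Median log2 fold changes ran from -0.88 for the monomer-binding genes through -0.50 for capping, -0.44 for Arp2/3, -0.35 for severing and disassembly and -0.33 for the actins to 0.00 for WASP and WAVE, -0.01 for formins and Ena/VASP and 0.20 for the last group. Whether roles differed from each other was not tested.

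**Figure D2:**
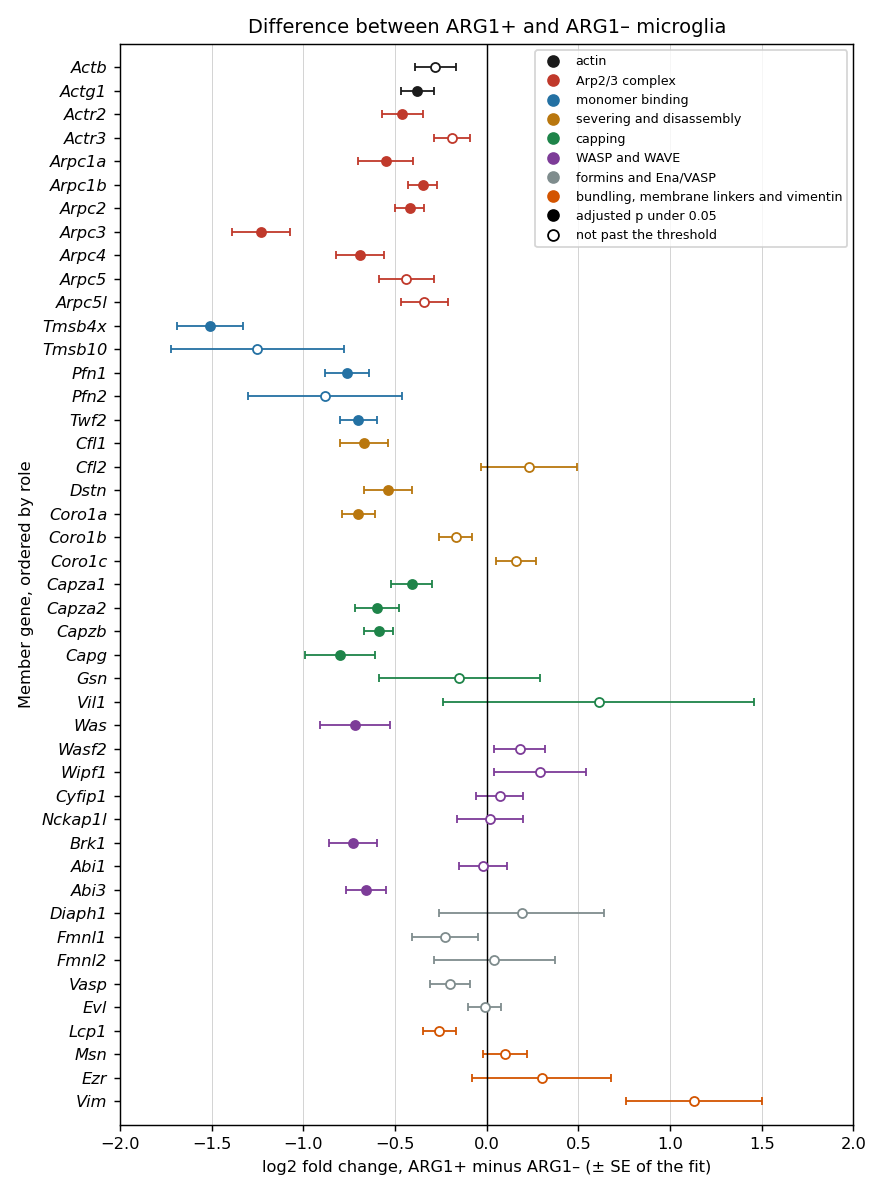
Log2 fold change between ARG1+ and ARG1– microglia with its SE for each member, ordered and coloured by role. Filled points are the 20 genes at an adjusted p under 0.05, which lie between -1.51 (*Tmsb4x*) and -0.35 (*Arpc1b*), and no filled point lies above 0.

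Of the actins, *Actg1* was lower and *Actb* did not pass. *Actb*, which encodes cytoplasmic β-actin (chr5:142903115-142906754, minus strand), had 5365, 7803 and 9058 CPM as lowest, median and highest value of the ARG1– libraries and 5107, 6018 and 8619 CPM in the ARG1+ libraries. The ranges overlapped over most of their length, and the log2 fold change of -0.28 (SE 0.11) had an adjusted p of 0.101. *Actb* is also the gene to which RT–qPCR values were normalised in the study. It passed the threshold in 2 of the 12 fits that left out 1 library, without ARG1+ female replicate 8 (adjusted p = 0.0406) or ARG1– male replicate 14 (adjusted p = 0.0499). *Actg1*, which encodes cytoplasmic γ-actin, had 255, 271 and 348 CPM in ARG1– and 207, 220 and 240 CPM in ARG1+ libraries. Its populations did not overlap, and its log2 fold change was -0.38 (SE 0.09, adjusted p = 0.0154 by edgeR, and 0.0506 without ARG1+ female replicate 7). The actin coding sequences are nearly alike, and their first 60 bases are shown with the differing bases in capitals, to show how alike the members of the pair are (GRCm38, chr5:142905627-142905686 and chr11:120348032-120348091, both on the minus strand):
Actb: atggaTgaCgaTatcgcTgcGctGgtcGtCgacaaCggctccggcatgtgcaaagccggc
Actg1: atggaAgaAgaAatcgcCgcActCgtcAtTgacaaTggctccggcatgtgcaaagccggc
Over the whole coding sequence of 1128 bases, 1000 bases (88.7%) were identical. Windows of 75 bases, the length of a read, were taken along the longest coding transcript of each member. Of these, 2.6% of those of *Actb* and 54.5% of those of *Actg1* also occurred in a transcript of another gene, the latter chiefly in pseudogenes. No window of *Actb* occurred in *Actg1*, and the level of *Actg1* is uncertain to that extent.

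The Arp2/3 complex, which nucleates branches, was lower in most of its subunits, and the fold change was below 0 in all 9. *Arpc3* (chr5:122391878-122414184, plus strand) changed most, with 148, 179 and 185 CPM in ARG1– and 47.8, 70.0 and 108 CPM in ARG1+ libraries. The populations were well apart, and the fold change was -1.23 on the log2 scale (SE 0.16, adjusted p = 7.3e-04), which is 2.35-fold lower in ARG1+ microglia. *Arpc4*, a core subunit, had 624, 648 and 878 CPM in ARG1– and 347, 414 and 564 CPM in ARG1+ libraries, again without overlap (-0.69, SE 0.13, adjusted p = 0.00444). Its exons overlap those of *Ttll3* on the same strand over 12.2% of their length. *Arpc2*, which with *Arpc4* forms the core that holds the mother filament, had 513, 603 and 610 CPM in ARG1– and 397, 422 and 522 CPM in ARG1+ libraries, with the highest ARG1+ library just above the lowest ARG1– library (-0.42, SE 0.08, adjusted p = 0.00543). *Actr2*, the actin-related protein ARP2, had 175, 199 and 226 CPM in ARG1– and 124, 136 and 187 CPM in ARG1+ libraries, a slight overlap (-0.46, SE 0.11, adjusted p = 0.0144). It did not pass without ARG1+ female replicate 7 or 8 or ARG1+ male replicate 12 or 16 (adjusted p from 0.0568 to 0.0595). *Actr3*, its partner ARP3, differed less in its fitted value (-0.19, SE 0.10, adjusted p = 0.257), with 34.3% of its windows shared with other genes.

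The Arp2/3 complex also has subunits in alternative forms. *Arpc1b*, the form abundant in blood cells, had 661, 716 and 818 CPM in ARG1– and 499.8, 568 and 639 CPM in ARG1+ libraries, so the populations did not overlap (-0.35, SE 0.08, adjusted p = 0.0099). Of its windows, 34.4% also occurred in other genes, chiefly in *Pdap1*, which overlaps 18.2% of its exons on the opposite strand. *Arpc1a*, its paralogue, had 60.4, 84.9 and 116 CPM in ARG1– and 48.6, 60.8 and 65.3 CPM in ARG1+ libraries, with overlap (-0.55, SE 0.15, adjusted p = 0.0311). It passed the threshold in only 3 of the 12 fits that left out 1 library, with adjusted p from 0.0504 to 0.0908 in the others. *Arpc5* (-0.44, SE 0.15, adjusted p = 0.0699) and its paralogue *Arpc5l* (-0.34, SE 0.13, adjusted p = 0.0952) did not pass, although both had an unadjusted p under 0.05.

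The largest change of any member was that of *Tmsb4x*, which encodes thymosin β4, the main protein that holds actin monomers in reserve (ENSMUSG00000049775, chrX:167207093-167209315, minus strand). It had 5004, 6674 and 8913 CPM in ARG1– and 1539, 2287 and 3226 CPM in ARG1+ libraries. Every ARG1+ library was below every ARG1– library by a wide margin, and the means of 6785 ± 1282 and 2374 ± 635 CPM (SD, n = 6 each) gave a difference of -1.51 on the log2 scale (SE 0.18, adjusted p = 5.8e-04 by edgeR), or 2.86-fold lower in ARG1+ microglia. Per length it was the most abundant member in ARG1– microglia, at a mean of 4949 RPKM (CPM per 1000 bases of exon) against 2827 for *Actb*, and in ARG1+ microglia it lay below *Actb*, at 1732 against 2327 RPKM. *Tmsb10*, which encodes thymosin β10, had 2.07, 2.47 and 3.29 CPM in ARG1– and 0.511, 0.690 and 2.17 CPM in ARG1+ libraries, at counts of 15 to 193 per library. Its fold change (-1.25, SE 0.47, adjusted p = 0.0906) did not pass the threshold except where every library had to hold at least 10 counts of a gene (adjusted p = 0.0254), and 32.8% of its windows also occurred in pseudogenes. The coding sequences of both thymosins are shown whole, since they are short and their RNA levels differ by over 3 orders of magnitude per length, with the differing bases in capitals (GRCm38, in 2 coding exons each, within chrX:167207501-167208036 and chr6:72957618-72958012, both on the minus strand):
Tmsb4x: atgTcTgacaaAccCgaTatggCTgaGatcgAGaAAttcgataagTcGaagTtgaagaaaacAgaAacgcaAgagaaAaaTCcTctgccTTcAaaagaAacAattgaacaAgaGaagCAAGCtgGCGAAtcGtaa
Tmsb10: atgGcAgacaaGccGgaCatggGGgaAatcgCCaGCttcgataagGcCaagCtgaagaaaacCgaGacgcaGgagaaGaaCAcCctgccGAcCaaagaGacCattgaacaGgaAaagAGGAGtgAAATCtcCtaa
Of the 135 bases, 95 (70.4%) are identical and 40 differ, spread over the whole length. No 75-base window of the longest *Tmsb4x* coding transcript occurred in another gene.

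Of the other monomer-binding genes, *Pfn1* and *Twf2* were lower as well. *Pfn1*, which encodes profilin 1, the protein that feeds monomers to growing ends (chr11:70651850-70654644, minus strand), had 588, 667 and 787 CPM in ARG1– and 340.0, 367 and 527 CPM in ARG1+ libraries, without overlap (-0.76, SE 0.12, adjusted p = 0.0017). *Twf2*, which encodes twinfilin 2, a monomer- and end-binding protein, had 259, 336 and 365 CPM in ARG1– and 192, 194 and 234 CPM in ARG1+ libraries, also without overlap (-0.70, SE 0.10, adjusted p = 0.00106). *Pfn2*, the profilin of neurons, was at a mean of 1.15 RPKM over all libraries, with counts of 54 to 358, and had an adjusted p of 0.183.

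Among the genes that sever and dismantle filaments, *Cfl1*, *Dstn* and *Coro1a* fell. *Cfl1*, which encodes cofilin 1, had 534, 640 and 695 CPM in ARG1– and 332, 363 and 541 CPM in ARG1+ libraries, with an overlap made by 1 high ARG1+ library (-0.67, SE 0.13, adjusted p = 0.00493). Of its windows, 16.5% also occurred in other genes, among them *Snx32*, which overlaps 16.5% of its exons on the opposite strand. *Dstn*, which encodes destrin, the related actin-depolymerising factor, had 122, 127 and 141 CPM in ARG1– and 59.7, 92.2 and 106 CPM in ARG1+ libraries, without overlap (-0.54, SE 0.13, adjusted p = 0.0161). Without ARG1+ female replicate 7 or ARG1+ male replicate 16 it did not pass (adjusted p = 0.0584 and 0.0626). *Cfl2*, the muscle form of cofilin, had a fitted value of 0.23 (SE 0.26, adjusted p = 0.611). *Coro1a*, the coronin of leukocytes (chr7:126699773-126707787, minus strand), had 1224, 1472 and 1659 CPM in ARG1– and 782, 937 and 972 CPM in ARG1+ libraries. Its populations did not overlap, and its log2 fold change was -0.70 (SE 0.09, adjusted p = 6.8e-04). *Coro1b* (-0.17, SE 0.09, adjusted p = 0.232) and *Coro1c* (0.16, SE 0.11, adjusted p = 0.366), the forms found in most cells, did not pass.

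Both chains of capping protein, which closes the fast-growing end, were lower. *Capzb*, the β chain (chr4:139192899-139291818, plus strand), had 631, 744 and 771 CPM in ARG1– and 455, 475 and 548 CPM in ARG1+ libraries, without overlap (-0.59, SE 0.08, adjusted p = 7.8e-04). *Capza2*, an α chain and the fourth member by RPKM (chr6:17636234-17666972, plus strand), had 1808, 2598 and 3158 CPM in ARG1– and 1455, 1687 and 1914 CPM in ARG1+ libraries. The overlap came from ARG1– female replicate 1, the lowest of its population, and the log2 fold change was -0.60 (SE 0.12, adjusted p = 0.00563). *Capza1*, the other α chain, had 141, 167 and 216 CPM in ARG1– and 111, 131 and 139.6 CPM in ARG1+ libraries, apart by a narrow gap (-0.41, SE 0.11, adjusted p = 0.0281). Of its windows 70.1% also occurred in other genes, among them pseudogenes and *St7l*, and it passed in 4 of the 12 fits that left out 1 library, with adjusted p from 0.0558 to 0.0871 in the others. *Capg*, a capping protein of the gelsolin family found in macrophages, had 25.0, 34.5 and 40.0 CPM in ARG1– and 12.9, 19.0 and 27.0 CPM in ARG1+ libraries, with a small overlap (-0.80, SE 0.19, adjusted p = 0.0142). *Gsn*, which encodes gelsolin, varied from 2.01 to 23.7 CPM among ARG1– libraries alone (-0.15, SE 0.44, adjusted p = 0.864). *Vil1*, the villin of epithelial microvilli, was at 0 to 16 counts in every library, at most 0.468 CPM, and its fitted value of 0.61 (SE 0.85, adjusted p = 0.69) rests on these few counts.

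**Figure D3:**
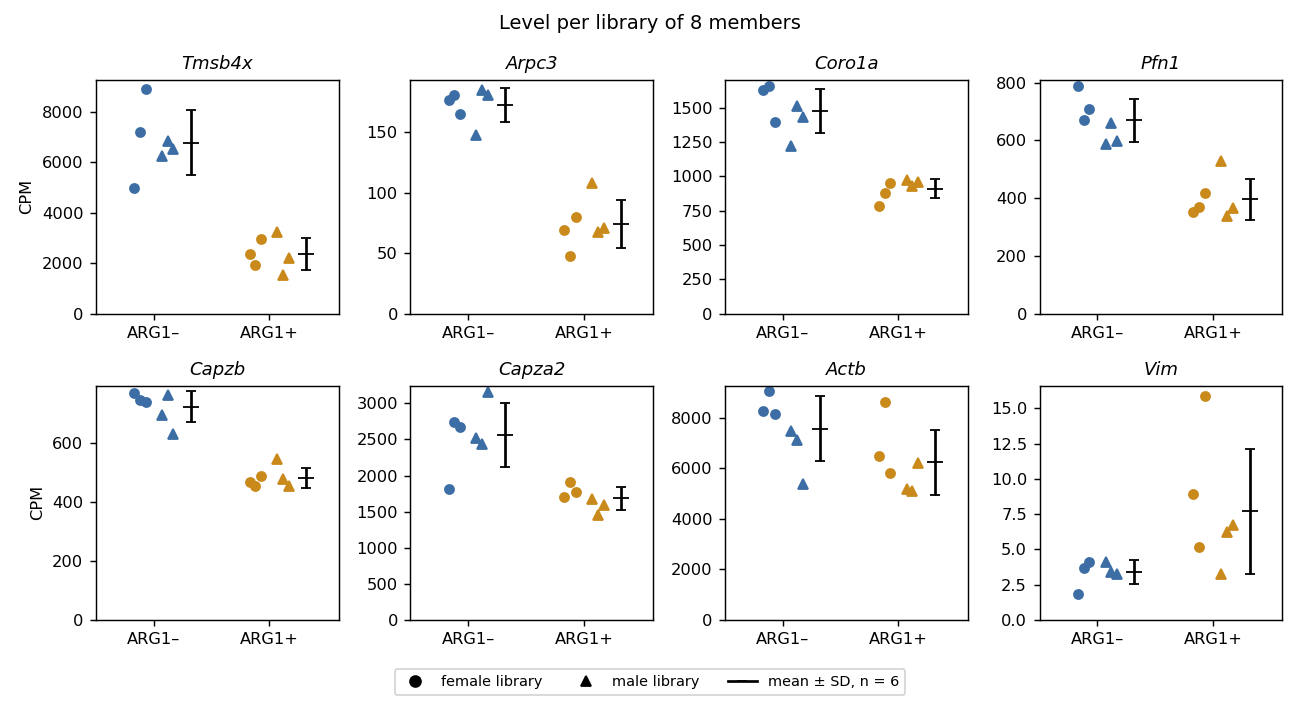
CPM per library of 8 members in ARG1– and ARG1+ microglia, with females as circles, males as triangles and the mean ± SD of the 6 libraries beside them. *Tmsb4x*, *Arpc3*, *Coro1a*, *Pfn1* and *Capzb* show no overlap between populations, *Capza2*, *Actb* and *Vim* do, and *Vim* has its highest value of 15.9 CPM in ARG1+ female replicate 15.

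The proteins that switch on the Arp2/3 complex were divided. *Was*, the WASP of blood cells, was lower in ARG1+ microglia, with 16.1, 20.2 and 24.3 CPM in ARG1– and 7.01, 13.5 and 18.5 CPM in ARG1+ libraries and some overlap (-0.72, SE 0.19, adjusted p = 0.0223). It did not pass without ARG1+ female replicate 7 or 8 or ARG1+ male replicate 12 or 16 (adjusted p from 0.0601 to 0.0714), and passed in 7 of the 10 other alternatives. Its partner *Wipf1* had a fitted value of 0.29 (SE 0.25, adjusted p = 0.486). In the WAVE complex, *Brk1*, its smallest subunit, had 213, 254 and 302 CPM in ARG1– and 133, 148 and 199 CPM in ARG1+ libraries, without overlap (-0.73, SE 0.13, adjusted p = 0.00311). *Abi3*, an adaptor of the complex expressed in microglia, had 275, 322 and 399 CPM in ARG1– and 178, 203 and 237 CPM in ARG1+ libraries, also without overlap (-0.66, SE 0.11, adjusted p = 0.00218). The exons of *Abi3* are overlapped over 75.8% of their length by *Gngt2*, *Phospho1* and *Zfp652* on the opposite strand, and since the sources do not say that reads were counted by strand, reads of these genes cannot be told apart from those of *Abi3*. The other subunits did not pass: *Wasf2* (WAVE2) had a log2 fold change of 0.18 (SE 0.14), *Cyfip1* of 0.07 (SE 0.13), *Nckap1l* (HEM1, the form of blood cells) of 0.02 (SE 0.18) and *Abi1* of -0.02 (SE 0.13), all at adjusted p between 0.416 and 0.968.

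Formins, Ena/VASP proteins and the remaining members gave no call. *Fmnl1*, a formin of leukocytes, had -0.23 (SE 0.18, adjusted p = 0.447), and *Diaph1* and *Fmnl2* were at a mean of 6.03 CPM or less in either population. *Vasp* had -0.20 (SE 0.11, adjusted p = 0.252) and *Evl* -0.01 (SE 0.09, adjusted p = 0.944). *Lcp1*, the plastin that bundles filaments in leukocytes, had 981, 1098 and 1170 CPM in ARG1– and 776, 929 and 1043 CPM in ARG1+ libraries (-0.26, SE 0.09, adjusted p = 0.0774). The membrane linkers *Msn* (0.10, SE 0.12) and *Ezr* (0.30, SE 0.38, adjusted p = 0.651) did not pass either. *Vim*, which encodes the intermediate filament protein vimentin, had the highest fitted value of all members. It had 1.80, 3.51 and 4.09 CPM in ARG1– and 3.27, 6.50 and 15.9 CPM in ARG1+ libraries, low levels with a small overlap and a wide spread within ARG1+ microglia (1.13, SE 0.37, adjusted p = 0.0595 by edgeR). It passed the threshold as higher in 4 other fits, with DESeq2's Wald test (adjusted p = 0.0163), the filter of at least 10 counts (0.0252), ARG1 status alone (0.0398) and counts thinned to the smallest library (0.0482), and also without ARG1+ male replicate 11 (0.0342).

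Where a member has a close relative among the members, the balance between them was compared per length, as the ratio of RPKM within each library and with no test. The leukocyte coronin was lower relative to both others, as *Coro1a* was 3.04 to 3.44 times *Coro1b* in ARG1– and 2.02 to 2.6 times in ARG1+ libraries, and 20.4 to 37.4 times *Coro1c* in ARG1– and 13.3 to 20.3 times in ARG1+ libraries. Neither pair of ranges overlapped, and in both pairs the shorter gene is *Coro1a* (2783 bases of exon against 3204 and 9664). In the other 12 pairs the ranges overlapped. The largest shift of a median among them, as a ratio, was in *Cfl1* to *Cfl2*, at 21.6 in ARG1– (14.1 to 48.9) and 12.2 in ARG1+ libraries (8.9 to 18.2). The median ratio of *Actb* to *Actg1* was 25.8 and 27.2, of *Tmsb4x* to *Tmsb10* 2702 and 2730, of *Arpc1b* to *Arpc1a* 4.22 and 4.92, of *Arpc5* to *Arpc5l* 10.2 in each, of *Cfl1* to *Dstn* 3.27 and 2.79, of *Capza2* to *Capza1* 9.88 and 8.37, of *Pfn1* to *Pfn2* 235 and 187, of *Fmnl1* to *Fmnl2* 28.4 and 23.2, of *Vasp* to *Evl* 0.493 and 0.433, and of *Msn* to *Ezr* 32.5 and 27.6, in ARG1– and ARG1+ libraries respectively. *Abi1* was at a median of 0.487 of *Abi3* in ARG1– and 0.844 in ARG1+ libraries, the ranges of 0.371 to 0.568 and 0.484 to 0.939 overlapping.

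Start sites of the members were searched for motifs, since 20 of them fell together. Promoter windows from 250 bases before to 50 bases after a start site were available from RefSeq (GRCm38.p6) for 37 members, in 47 windows, among 32851 windows in all. The other 8 members, *Actb*, *Abi3*, *Twf2*, *Arpc5l*, *Coro1b*, *Cyfip1*, *Nckap1l* and *Diaph1*, had no window and were not searched. All windows were taken whatever the level of their gene in these libraries. The CArG box that binds SRF, a regulator of actin genes, was searched as CC, then any 6 of A or T, then GG. It was found in 3 member windows (*Actg1*, *Arpc4* and *Vil1*), which is 6.38% of them, and in 1.63% of all windows. The GC box GGGCGG was found in 34 of the 47 windows (72.3%), compared with 35.7% of all. The TATA box TATAAA was found in 1 (*Vim*, 2.13%), compared with 13.6%. Windows of genes at the members' level were not taken as a background, so these shares are not particular to actin genes. The ETS-family site CCGGAAGT was found in 7 member windows (14.9%; *Actr2*, *Actr3*, *Arpc1a*, *Arpc3*, *Arpc4*, *Coro1c* and *Vil1*), compared with 3.89% of all. The site GAGGAAGT of the myeloid ETS factor PU.1 was found in 2 (4.26%, *Arpc1b* and *Fmnl1*), compared with 3.2%. Each was searched on both strands, and the ETS-family and PU.1 letters share GGAAGT but no whole match. Of all 37 members with a window 18 were lower, of those with a GC box 13 of 29, of those with an ETS-family site 4 of 7 and of those with a CArG box 2 of 3, differences that were not tested. Upstream sequence is shown for the monomer-binding gene and the Arp2/3 subunit that fell most and for the lower genes with a CArG box, with the motif named before each in capitals and written along the gene's strand. Distances are counted to the RefSeq start site, and the stretches of *Tmsb4x* and *Actg1* end 97 and 47 bases short of it, where the GENCODE gene begins. The GC box of *Tmsb4x* begins 211 bases before the start site (chrX:167209316-167209468, minus strand), the ETS-family site of *Arpc3* 11 bases before it (chr5:122391628-122391877, plus strand), the CArG box of *Actg1* 90 bases (chr11:120348543-120348745, minus strand) and that of *Arpc4* 250 bases before it (chr6:113377863-113378112, plus strand):
Tmsb4x: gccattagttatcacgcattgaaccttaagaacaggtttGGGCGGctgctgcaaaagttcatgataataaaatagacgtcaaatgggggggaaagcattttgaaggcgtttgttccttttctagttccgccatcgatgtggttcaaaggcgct
Arpc3: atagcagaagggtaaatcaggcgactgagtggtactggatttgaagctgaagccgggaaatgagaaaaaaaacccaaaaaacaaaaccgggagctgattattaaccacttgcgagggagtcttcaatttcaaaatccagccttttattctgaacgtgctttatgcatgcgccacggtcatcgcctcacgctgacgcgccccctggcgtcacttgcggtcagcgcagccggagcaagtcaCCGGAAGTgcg
Actg1: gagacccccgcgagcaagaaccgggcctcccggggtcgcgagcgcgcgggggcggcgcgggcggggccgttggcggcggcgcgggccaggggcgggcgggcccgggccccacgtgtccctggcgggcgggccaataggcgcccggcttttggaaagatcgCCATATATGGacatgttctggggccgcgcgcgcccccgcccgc
Arpc4: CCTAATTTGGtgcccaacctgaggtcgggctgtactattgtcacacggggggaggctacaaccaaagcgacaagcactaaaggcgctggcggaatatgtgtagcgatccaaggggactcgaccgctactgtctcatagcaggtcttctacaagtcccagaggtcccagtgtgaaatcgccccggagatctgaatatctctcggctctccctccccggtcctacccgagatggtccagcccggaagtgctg

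The fold change of the members followed the length of the gene. Across the 45 members, the correlation of the log2 fold change with the union length of the exons was 0.65 (Spearman's rank correlation; Pearson's r 0.59), and across the 3764 abundant protein-coding genes it was 0.56 (Pearson's r 0.55), as a description over genes measured in the same libraries. Over all 16879 genes tested with a length, the rank correlation was 0.18. The members with under 1500 bases (*Brk1*, *Tmsb10* and *Tmsb4x*) had a median of -1.25. The 7 members of 1500 to 2500 bases had a median of -0.69, with 6 lower. Medians were -0.38 for 17 members of 2500 to 4000 bases (8 lower), -0.21 for 12 members of 4000 to 6000 bases (4 lower) and 0.13 for the 6 longest (0 lower). In the same classes, abundant protein-coding genes had medians of -0.73, -0.45, -0.21, 0.01 and 0.19, and 76, 52.7, 28.9, 12.3 and 5.94% of them were lower. In each of the 5 classes the median of the members lay below that of the abundant genes, a difference that was not tested. The members were taken at every level, and only 33 of the 45 reached the 50 CPM asked of the abundant genes. The median of the shortest class is the value of *Tmsb10*, which is below that level and did not pass. The union length can far exceed that of a transcript. It was 2762 bases for *Arpc3*, 2405 for *Pfn1* and 5890 for *Capza2*, whose longest coding transcripts have 899, 861 and 2537 bases. For *Brk1* (1095 bases) and *Dstn* (1911 bases) both measures are equal. A member's class and its value with the length trend removed depend on this measure, and transcript length was not tested in its place.

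**Figure D4:**
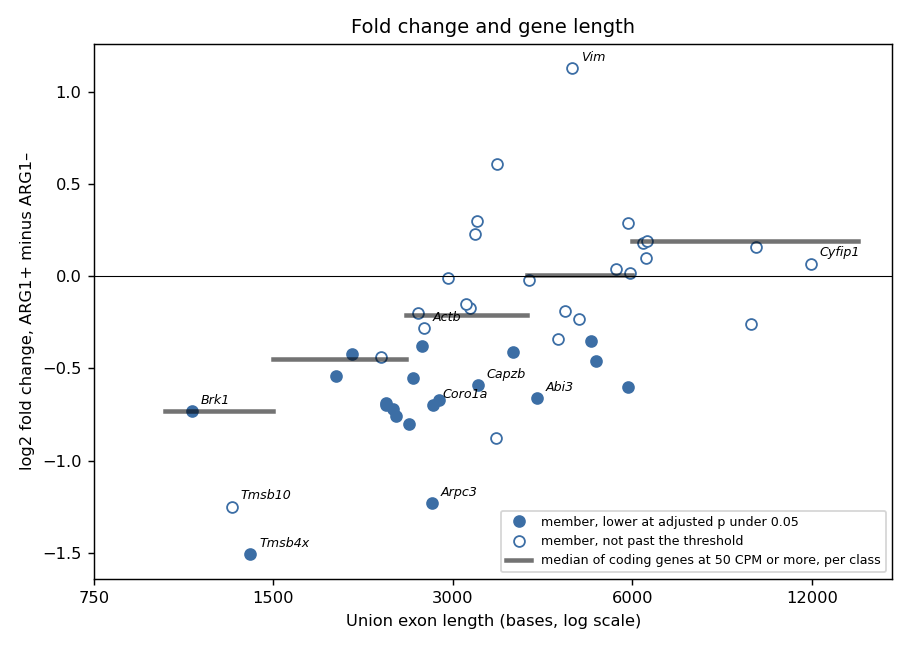
Log2 fold change (ARG1+ minus ARG1–) of each member against its union exon length on a log scale, with filled points for the 20 genes at an adjusted p under 0.05 and grey bars for the median of abundant protein-coding genes in 5 length classes. *Tmsb4x* and *Arpc3* lie furthest below the bars, at -1.51 and -1.23, and *Brk1* lies on its bar. *Arpc3* is placed by its union length of 2762 bases, while its longest coding transcript has 899.

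With the length trend of the abundant protein-coding genes removed from each library, an alternative added after the data had been seen, 12 members were lower and 0 higher, compared with 4.13% of all genes and 12% of the abundant protein-coding genes that were lower in that fit. The median of all genes tested moved from 0.06 to 0.22 and that of the members from -0.35 to -0.17. In both fits 11 members were lower: *Tmsb4x* (-0.89, adjusted p = 0.0015), *Arpc3* (-0.95, adjusted p = 0.00213), *Capza2*, *Abi3*, *Coro1a*, *Capzb*, *Pfn1*, *Twf2*, *Cfl1*, *Actr2* and *Arpc1b*. *Lcp1*, at 9504 bases 1 of the longest members, came to -0.46 (SE 0.06, adjusted p = 0.00127). The 9 that no longer passed were *Actg1*, *Arpc1a*, *Arpc2*, *Arpc4*, *Dstn*, *Capza1*, *Capg*, *Was* and *Brk1*, of which *Brk1* moved from -0.73 to 0.02 and *Arpc2* from -0.42 to 0.03. *Actb* moved from -0.28 to 0.02. With the trend fitted over all genes instead, 19 members and 9.84% of all genes were lower. Every ARG1+ library had a smaller share of its counts on short genes than every ARG1– library, so that this shift and a lower level of the short members cannot be told apart.

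In females, 13 members were lower in ARG1+ microglia and 0 higher, compared with 4.16% of all genes lower and 2.6% higher. In males, 7 were lower and 0 higher, compared with 3.1 and 2.03% (edgeR on the 4 group means). DESeq2 called 15 lower and 3 higher in females (7.13 and 7.58% of all genes) and 14 lower and 0 higher in males (7.42 and 6.85%). *Tmsb4x* fell in each, by 1.54 (SE 0.27) in females and 1.49 (SE 0.27) on the log2 scale in males, and *Arpc3* by 1.41 (SE 0.22) and 1.05 (SE 0.22). *Coro1a*, *Capzb* and *Twf2* also passed in each sex. *Abi3*, *Pfn1*, *Cfl1*, *Arpc4*, *Brk1*, *Actg1*, *Arpc2* and *Capg* passed in females, and *Capza2* (-0.78, adjusted p = 0.0243) and *Dstn* (-0.70, adjusted p = 0.0459) in males. All 3 ARG1+ libraries lay below all 3 ARG1– libraries for 25 members in females, for 20 in males and for 17 in each, compared with 16.6, 14 and 7.77% of all genes. Passing in 1 sex does not show that the sexes differ. The difference of the ARG1 contrast between sexes was past the threshold in 0 members with edgeR and 0 with DESeq2. With edgeR it was past the threshold in 0% of all genes. By edgeR, 3 members had an unadjusted p under 0.05 for this difference, as had 1576 of all 16908 genes. These members were *Abi3* (-0.50, SE 0.17, fell more in females), *Cfl2* (1.19, SE 0.40) and *Wipf1* (1.10, SE 0.40), each at an adjusted p of 0.486. *Cfl2* had means of 26.6 and 47.2 CPM in ARG1– and ARG1+ females and of 37.0 and 28.7 CPM in males.

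**Figure D5:**
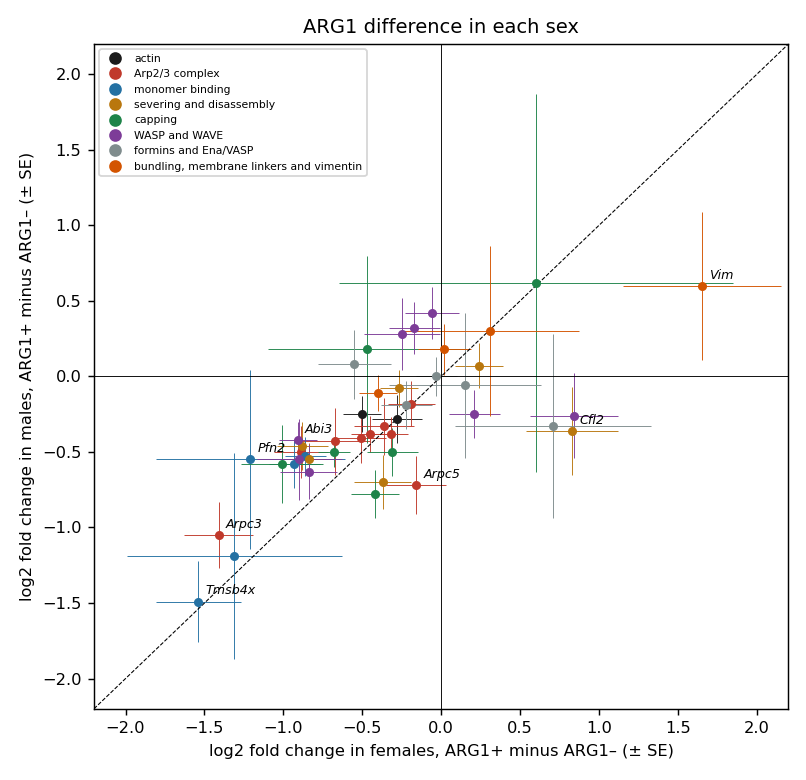
Log2 fold change between ARG1+ and ARG1– microglia in females (x axis) and in males (y axis) for the 45 members, coloured by role, with SE bars from the fit and the line of equal change. *Tmsb4x* and *Arpc3* are low on both axes, and *Cfl2* lies at the right below 0.

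The counts within a sex depended on single libraries. Without ARG1+ female replicate 7, 2 members passed in females, and without ARG1+ female replicate 8, 5. In males, 15 passed without ARG1+ male replicate 11, whereas 0 passed without ARG1– male replicate 6 or 14 or ARG1+ male replicate 12 or 16, and 0 with only the 6 male libraries in the fit. ARG1+ male replicate 11 was the highest ARG1+ library in 15 of the 20 lower members. Its median difference from the ARG1– mean over these members was -0.37 on the log2 scale, while the other ARG1+ libraries had -0.82 to -0.59. Its share of counts on genes under 1500 bases (8.57%) was also the highest among ARG1+ libraries, and its part in this was not tested. Between females and males, 0 members differed in ARG1– microglia (0.0946% of all genes) and 0 in ARG1+ microglia (0.0355%) with edgeR, and DESeq2 called 0 in each. By edgeR, 2 and 5 members had an unadjusted p under 0.05, as had 1692 and 528 of all 16908 genes. *Actb* had a fitted female minus male difference of 0.35 (SE 0.16, adjusted p = 0.493) in ARG1– microglia.

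Other genes of the pathway, taken from lists of 112 genes of which 105 were tested, did not share a direction: 16 were lower, 11 higher, and their median log2 fold change was 0.16. Over all genes tested, 9.42% were lower and 6.44% higher, with a median of 0.06. With DESeq2, 18 were lower and 27 higher, compared with 11.3 and 11.4% of all genes. Of 16 myosins and tropomyosins, DESeq2 called 5 lower and 7 higher. With edgeR, 3 were lower, the light chains *Myl6* (-0.92, SE 0.14, adjusted p = 0.0015), *Myl12b* (-0.76, SE 0.12, adjusted p = 0.00157) and *Myl12a* (-0.81, SE 0.14, adjusted p = 0.00266), and 4 heavy chains were higher (*Myo9b*, *Myo5a*, *Myo9a* and *Myo1e*, from 0.80 to 1.92). The light chain genes have 2770 to 3360 bases of exon and these heavy chain genes 5704 to 14803.

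Of 53 other actin-binding and nucleation genes tested, 9 were lower and 2 higher (9.42 and 6.44% of all genes). DESeq2 called 9 lower and 8 higher of 52 (11.3 and 11.4% of all genes). *Aif1*, which encodes the microglial marker IBA1, an actin-bundling protein, had 356, 459 and 532 CPM in ARG1– and 147, 183 and 244 CPM in ARG1+ libraries, without overlap (-1.26, SE 0.15, adjusted p = 5.8e-04). *Gmfg*, a factor that takes branches apart, was lower too (-1.04, SE 0.14, adjusted p = 9.3e-04). *Cotl1*, a filament-binding protein related to cofilin, went the other way, with 52.5, 68.7 and 113 CPM in ARG1– and 141, 162 and 182 CPM in ARG1+ libraries (1.13, SE 0.17, adjusted p = 0.00134). It is a short gene, with 1596 bases of exon. *Srf* and its coactivators *Mrtfa* and *Mrtfb*, as a list of 3, held 0 lower and 0 higher genes, with 0 at an unadjusted p under 0.05 (edgeR), a smallest adjusted p of 0.758 and 0 called by DESeq2.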

How the data were processed

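Reads of 75 bases, sequenced from SMART-Seq v4 complementary DNA made into Nextera XT libraries, were demultiplexed with bcl2fastq 2.20.0, aligned to GRCm38 with STAR 2.6.1d and counted on genes with featureCounts 1.5.1 by the authors, who compared populations with DESeq2 1.28.1. The deposited values are raw counts per gene, not normalised. Strand, multimapping and overlap settings of the counting are not given in the sources used here. Without molecular identifiers, copies made in amplification count as separate reads, and counting error alone understates the error. A full-length method with fragmentation yields reads in proportion to transcript length, so levels of different members were compared with each other as RPKM. The sums of markers and the limit of 50 CPM are not corrected for length.

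From these counts, low genes were removed by filterByExpr (4 groups) and the rest scaled by TMM and tested by edgeR 4.0.16 in R 4.3.3 (glmQLFit, glmQLFTest), with terms for ARG1 status and sex, all 12 libraries and Benjamini–Hochberg adjustment over all 16908 genes tested (limit 0.05). Contrasts within a sex and between sexes used a fit of the 4 group means. SEs are the fold change divided by the root of its F statistic. Identifiers were matched to GENCODE M21 (55227 matched, 260 not, holding 0.0333% of counts), which also gave exon lengths, overlaps and the 75-base windows that each member's longest coding transcript shares with transcripts of other genes. 0 columns were left unused.

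The members, gene lists and tests were chosen with earlier results of these data known. All members are accounted for; those at an adjusted p under 0.05, and the 5 of highest RPKM, are given with their lowest, median and highest values, and of each related list but one, which enters the total and is not reported on its own here, the 3 genes of smallest p. Any other gene was named after its values had been seen. Alternatives were no filter, scaling by upper quartiles or by DESeq2 size factors, at least 10 counts in every library, DESeq2 1.42.0's Wald test, a term for libraries numbered 13 to 16, ARG1 status alone, removal of the trend on gene length in each library, counts thinned to the smallest total, only the 6 libraries of a contrast, and each library left out in turn. Removal of the length trend of protein-coding genes at 50 CPM or more was added after the data had been seen. P values measure the spread between libraries. ARG1+ and ARG1– microglia were sorted from the same pooled tissue, so libraries of both populations share pools of mice, but the labels do not say which, and the tests treat the libraries as separate.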

Additional observations from a re-analysis of the deposited data

Results flagged for a closer look

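Each member was examined in each population for a library far from the other 5 by Dixon's ratio of gap to range. Of 90 such groups, 2 were flagged, where chance would flag about 4.5. *Capzb* was at 548 CPM in ARG1+ male replicate 11, the highest of its population and still below the lowest ARG1– library. *Vim* was at 1.80 CPM in ARG1– female replicate 1, the lowest of its population.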

How the results depend on the processing

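No paired analysis was possible because the labels give the groups no replicate number in common. The 20 lower members were 15 with no filter, 12 with the length trend of genes at 50 CPM or more removed and 19 to 21 in the other settings. Leaving out 1 library gave 14 (without ARG1+ female replicate 7) to 20 lower members, and 21 changed members without ARG1+ male replicate 11, where *Vim* was higher. In females, the 13 became 8 with that length trend removed and 2 to 14 with 1 library left out. In males, the 7 became 3 with no filter, 14 with DESeq2's Wald test, 11 with the length trend of all genes removed, 4 with that of genes at 50 CPM or more, 0 with only the 6 libraries and 0 to 15 with 1 left out. The related genes were 45 with DESeq2's Wald test and otherwise 18 to 29 with 1 library left out, against 27. With 1 library left out, all genes changed numbered 1753 (without ARG1+ male replicate 12) to 2669, against 2682 (1593 lower, 1089 higher). They numbered 3764 with DESeq2's Wald test (1868 lower, 1896 higher), 2853 with at least 10 counts, 2820 with ARG1 status alone and 2097 with no filter. They split into 1663 lower and 651 higher with the length trend removed and 698 and 1514 with that of genes at 50 CPM or more. Of the 20 lower members, 9 passed in every fit (*Arpc3*, *Tmsb4x*, *Pfn1*, *Twf2*, *Cfl1*, *Coro1a*, *Capza2*, *Capzb* and *Abi3*).

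Signs turned in 49 values of single members, among them 1 each of *Arpc2* and *Brk1*, which were past the threshold as reported. With the length trend of genes at 50 CPM or more removed, log2 fold changes became *Actb* 0.02, *Arpc2* 0.03, *Coro1b* 0.04, *Coro1c* -0.04, *Gsn* 0.07, *Cyfip1* -0.22, *Nckap1l* -0.07, *Brk1* 0.02, *Abi1* 0.07, *Fmnl2* -0.01, *Vasp* 0.11 and *Evl* 0.24. With that of all genes removed, they became *Coro1c* -0.20, *Wasf2* -0.02, *Cyfip1* -0.37, *Nckap1l* -0.18, *Fmnl2* -0.12, *Evl* 0.04 and *Msn* -0.11. *Abi1* became 0.02 with DESeq2 size factors, at least 10 counts or DESeq2's Wald test and 0.01 with no filter, and *Evl* 0.02 in these 4 and 0.00 with upper-quartile factors. With 1 library left out, *Gsn* ranged from -0.40 to 0.06, *Nckap1l* from -0.11 to 0.11, *Abi1* from -0.06 to 0.10, *Diaph1* from -0.05 to 0.45, *Fmnl2* from -0.09 to 0.28 and *Evl* from -0.05 to 0.06. By construction the length-trend fits change long and short genes in opposite directions; the cause of the other changes was not tested. At a floor of 3 counts, depth limits *Vil1* alone among the members.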
